A study of Saccharomyces cerevisiae with 41 samples.

Results

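The DNA damage checkpoint of budding yeast was followed at the mRNA level through 10 genes: the kinases MEC1, TEL1, RAD53, CHK1 and DUN1, the adaptors RAD9 and MRC1, the clamp genes RAD24 and RAD17, and RFX1, which encodes the repressor Crt1. Members were found by gene symbol in the probe annotation, and each symbol had 1 probe set, so the 10 genes are 10 of 5337 genes tested (5380 probe sets). Cells of 6 strains in the YPH499 background, grown in YPD at 30 °C, were given 100 J/m2 of UV-C and RNA was measured on 41 Affymetrix Yeast 2.0 arrays. The irradiated groups were taken at 15, 30 and 60 min in mig3Δ (lacking a transcriptional repressor), snf1Δ (lacking the AMP-activated kinase homolog) and WT, and at 30 and 60 min in rad23Δ, snf1Δ rad23Δ and rad4Δ. RAD23 and RAD4 encode partners in damage recognition for nucleotide excision repair. Each strain also had unirradiated arrays. All groups had 2 arrays except mig3Δ at 15 min, which had 1 and was assumed to vary like the others. No mock-irradiated arrays at 15, 30 or 60 min were used here, so handling of the cells during irradiation and UV itself cannot be told apart in any UV response below.

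The checkpoint works as a relay. Mec1, with its partner Ddc2, recognises single-stranded DNA coated by replication protein A, Tel1 recognises broken ends through the MRX complex, and Rad24 loads the Rad17-Mec3-Ddc1 clamp that stimulates Mec1. The adaptors Rad9 and Mrc1 bring Rad53 to Mec1 to be activated, Rad9 also serves Chk1, and Rad53 activates Dun1. Phosphorylated Crt1 leaves the promoters of ribonucleotide reductase genes, and Crt1 also represses its own gene. These steps run mainly through phosphorylation, which an mRNA array does not measure.

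Array signals are log2 values as the authors deposited them, so a difference of 1 is a doubling. A response is the irradiated mean minus the unirradiated mean of the same strain. Levels of different genes are not compared, since probes differ. A gene was called when limma's moderated test across all probe sets gave a Benjamini-Hochberg adjusted p under 0.05, and rose or fell is used only of called changes. The replicates are described as biological in the series design, with no detail on cultures, so p-values measure the spread between these samples. The deleted genes matched the labels: SNF1 read 2.09 to 2.74 on the 14 arrays of strains lacking it, against 10.69 to 11.92 on the other 27. MIG3, RAD23 and RAD4 read 1.91 to 2.27 where deleted, against 7.59 to 13.49 elsewhere. The 10 members read 4.52 to 12.27. That is above the 2.12 to 2.19 that bounds 95% of the 1746 annotated probe sets without a match in the budding yeast gene table. The WT arrays at 60 min lay farthest apart, with 780 probe sets more than 2-fold different, followed by mig3Δ at 60 min with 384 and mig3Δ at 30 min with 370. An array averages a whole culture and GCRMA sets arrays to a shared distribution, so RNA per cell and the share of cells carrying it cannot be told apart, and a change of total mRNA would not be seen.

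Averaged over the 6 strains with equal weight, UV was followed by higher RNA of the effector kinases, the clamp genes and RFX1 and by lower RNA of MEC1, TEL1 and RAD9. At 60 min 9 of the 10 members were called, 6 higher and 3 lower, against 73.6% of all probe sets called in either direction. At 30 min 7 were called, 4 higher and 3 lower, against 65.8%. At 15 min, averaged over mig3Δ, snf1Δ and WT, 1 was called, against 16.7%. The share called among the members is therefore near that of all genes at the later times, and what distinguishes the members from one another is direction and timing. The median response of the members at 60 min was 0.54, and the median over all probe sets was 0.02. Every one of the 23 calls on averaged responses, the 60 minus 30 min differences included, remained in each alternative setting and with each array left out.

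**Figure D1:**
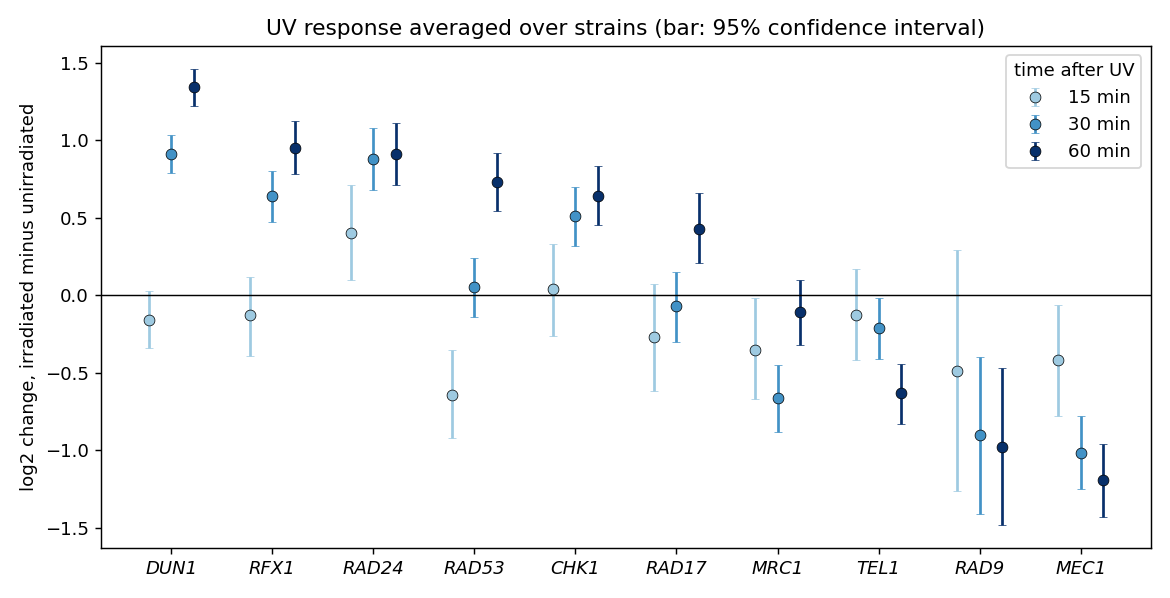
UV response of each member averaged over strains (log2, irradiated minus unirradiated; points are estimates and bars 95% confidence intervals) at 15 min (mean of mig3Δ, snf1Δ and WT) and at 30 and 60 min (mean of 6 strains). DUN1, RFX1, RAD24 and CHK1 lie above 0 at 30 and 60 min, MEC1 and RAD9 below it, and RAD53 is at -0.64 at 15 min, 0.05 at 30 min and 0.73 at 60 min, the first over fewer strains than the others.

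MEC1, the sensor kinase that starts the response, fell in every strain at 30 min, at 60 min or at both. In WT it read 9.81 and 9.74 unirradiated, 9.21 and 9.18 at 15 min, 8.63 and 8.61 at 30 min, and 9.46 and 7.74 at 60 min. In rad4Δ it read 9.88 and 9.73 unirradiated, 8.20 and 8.25 at 30 min, and 7.69 and 7.80 at 60 min. In all 6 strains both irradiated arrays lay below both unirradiated ones, at 30 min and again at 60 min. The averaged response was -1.02 ± 0.11 (SE) at 30 min (limma adjusted p = 6.74e-08) and -1.19 ± 0.11 at 60 min (adjusted p = 3.80e-09), which is 0.437 of the unirradiated level. The 2 WT arrays at 60 min lay far apart for MEC1, and the WT response of -1.17 became -2.03 without replicate 1 and -0.31 without replicate 2, where the call ended (adjusted p = 0.14). The averaged response stayed between -1.34 and -1.05 with either left out.

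TEL1, the second sensor kinase, changed later. Its averaged response was -0.21 ± 0.09 at 30 min (limma adjusted p = 0.0523) and -0.63 ± 0.09 at 60 min (adjusted p = 2.98e-06), with a further fall of -0.42 ± 0.09 between these times (adjusted p = 0.000808). In rad4Δ it read 9.19 and 9.13 unirradiated, 9.03 and 9.22 at 30 min, and 7.97 and 7.52 at 60 min. The drop in rad4Δ was thus between 30 and 60 min, and both arrays at 60 min lay below all others of that strain. In WT the values were 8.55 and 8.69 unirradiated, 8.51 and 8.75 at 30 min and 8.79 and 7.77 at 60 min, so the groups overlapped. At 60 min TEL1 was called in rad4Δ (-1.41 ± 0.23, adjusted p = 2.36e-05) and rad23Δ (-0.76 ± 0.23, adjusted p = 0.0116). The rad23Δ call ended without unirradiated replicate 2 or without 60 min replicate 1.

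RAD24, the subunit that turns replication factor C into the checkpoint clamp loader, rose. Over the 12 arrays at 30 min it ranged from 8.91 to 9.51 with a median of 9.11, and in each strain both arrays lay above both unirradiated ones. The averaged response was 0.88 ± 0.10 at 30 min (limma adjusted p = 5.22e-08) and 0.91 ± 0.10 at 60 min (adjusted p = 2.12e-08), with 0.03 ± 0.10 between them. At 15 min the strain called was snf1Δ, at 8.67 and 8.61, against 7.95 and 7.84 unirradiated (0.75 ± 0.24, adjusted p = 0.0472). That call ended in 4 of 10 alternatives, namely without any 1 of these arrays, while its size stayed between 0.69 and 0.94. The WT arrays at 60 min again parted, at 8.25 and 9.37, and the WT response of 0.64 became 0.08 without replicate 2 and 1.20 without replicate 1.

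RAD17, which encodes a subunit of the clamp itself, followed a slower course. Its averaged response was -0.27 ± 0.17 at 15 min and -0.07 ± 0.11 at 30 min, neither called, and 0.43 ± 0.11 at 60 min (limma adjusted p = 0.0011). The rise between 30 and 60 min was 0.51 ± 0.11 (adjusted p = 0.00052). In rad4Δ it read 8.50 and 8.35 unirradiated, 8.23 and 8.22 at 30 min and 8.84 and 9.10 at 60 min. In WT it read 8.24 and 8.29 unirradiated, 7.94 and 7.77 at 30 min and 8.22 and 9.23 at 60 min. The WT groups at 60 min and unirradiated overlapped, those of rad4Δ did not, and no single strain's response was called at any time, so the calls rest on all strains together.

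RAD9, the adaptor for damage outside replication, fell on average, but not in every strain at 60 min. The averaged response was -0.90 ± 0.24 at 30 min (limma adjusted p = 0.00249) and -0.98 ± 0.24 at 60 min (adjusted p = 0.00108). At 30 min both irradiated arrays lay below both unirradiated ones in all 6 strains, and at 60 min in 4 of the 6. The means unirradiated and at 60 min were 8.98 and 8.97 in WT and 9.07 and 8.93 in snf1Δ. Single-strain calls were limited to snf1Δ rad23Δ at 30 min (-1.59) and 60 min and rad4Δ at 60 min (-1.75). One array stood apart: in snf1Δ rad23Δ at 60 min RAD9 read 4.52 on replicate 1 and 8.29 on replicate 2, against 9.38 and 9.40 unirradiated. Without that replicate 1 the averaged response at 60 min was -0.66 (adjusted p = 1.81e-06) and the response of snf1Δ rad23Δ was -1.10 (adjusted p = 0.00243), in place of -2.99. The same array enters every RAD9 error given here, since all groups share 1 estimate of the spread. The 60 minus 30 min difference was -0.07 ± 0.24 with all arrays, 0.24 (adjusted p = 0.0355) without replicate 1 and -0.39 (adjusted p = 0.00168) without replicate 2, so its direction is set by that pair.

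MRC1, the adaptor that acts at replication forks, fell and then parted by strain. The averaged response was -0.66 ± 0.10 at 30 min (limma adjusted p = 6.34e-06) and -0.11 ± 0.10 at 60 min (adjusted p = 0.348). The 60 minus 30 min difference was 0.56 ± 0.10 (adjusted p = 0.000119). In rad4Δ it read 8.60 and 8.47 unirradiated, 7.07 and 7.59 at 30 min and 7.37 and 7.42 at 60 min. In snf1Δ it read 8.33 and 8.14 unirradiated, 8.24 and 7.97 at 30 min and 9.14 and 9.22 at 60 min. At 60 min MRC1 was thus below its unirradiated level in rad4Δ (-1.14 ± 0.25, adjusted p = 0.000611) and above it in snf1Δ (0.95 ± 0.25, adjusted p = 0.00431), and the averaged value lies between these.

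RAD53, the central effector kinase, dipped first. At 15 min the response averaged over mig3Δ, snf1Δ and WT was -0.64 ± 0.14 (limma adjusted p = 0.00243), the one member called at that time. WT read 8.10 and 8.71 unirradiated, 7.44 and 7.72 at 15 min, 8.37 and 8.46 at 30 min and 9.53 and 9.82 at 60 min. In snf1Δ it read 7.85 and 7.82 unirradiated, 7.26 and 7.73 at 15 min, 8.91 and 8.78 at 30 min and 9.76 and 9.86 at 60 min. In both strains the arrays at 15 min lay below, and those at 60 min above, all unirradiated ones. In the strains sampled at 15 min, the responses at 30 min were 0.60 in mig3Δ, 1.01 in snf1Δ and 0.01 in WT. Averaged over 6 strains RAD53 was at 0.05 ± 0.09 at 30 min and rose by 0.73 ± 0.09 at 60 min (adjusted p = 2.12e-07). The average at 30 min lies between opposite calls. RAD53 rose in snf1Δ (adjusted p = 0.00148) and fell in rad23Δ (-0.67, adjusted p = 0.0267) and rad4Δ (-0.62, adjusted p = 0.0353). The calls of rad23Δ and rad4Δ at 30 min ended in 3 and 4 of 10 alternatives. The largest strain response at 60 min, 1.97 ± 0.22 in snf1Δ, and the smallest, 0.02 ± 0.22 in rad4Δ, differ widely. In snf1Δ the unirradiated mean was lower, 7.84 against 8.40 in WT (-0.57, adjusted p = 0.0411), while the 60 min means were 9.81 and 9.68. That unirradiated call ended without WT replicate 2 or either snf1Δ array. The WT call at 15 min (-0.82) ended in 5 of 10 alternatives: quantile normalization, median centring, and without unirradiated replicate 2 or either 15 min array. The WT call at 60 min (1.27) ended with array weights (adjusted p = 0.146).

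CHK1, the kinase that protects the anaphase inhibitor Pds1, rose by 0.51 ± 0.09 at 30 min (limma adjusted p = 5.01e-05) and by 0.64 ± 0.09 at 60 min (adjusted p = 2.06e-06) on average. In rad4Δ it read 10.81 and 10.62 unirradiated, 11.58 and 11.54 at 30 min and 12.13 and 12.12 at 60 min, with no overlap. In snf1Δ it read 11.34 and 11.72 unirradiated, 11.44 and 11.54 at 30 min and 11.40 and 11.45 at 60 min, with the arrays at 30 and 60 min inside the unirradiated range. The unirradiated snf1Δ mean of 11.53 was above the 10.90 of WT (0.63, limma adjusted p = 0.0286) and near the WT mean of 11.43 at 30 min. That unirradiated call ended without replicate 2 of either strain. At 60 min the response was called in rad4Δ (1.41 ± 0.23), snf1Δ rad23Δ (0.94 ± 0.23) and rad23Δ (0.79 ± 0.23). It was 0.52 in mig3Δ, -0.10 in snf1Δ and 0.28 in WT, none called. The rad23Δ call ended without replicate 2 at 60 min, as did that of snf1Δ rad23Δ. The rad23Δ call also ended without unirradiated replicate 1.

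DUN1, the kinase below Rad53 that acts on Crt1 and on the ribonucleotide reductase inhibitor Sml1, had the largest averaged rise among the members at 30 and 60 min. At 30 min the average of RAD24, 0.88, lay close to it. In some strains others exceeded it: at 60 min in rad23Δ RAD24 (1.01) and CHK1 (0.79) against 0.61 for DUN1, and in rad4Δ CHK1 (1.41) against 1.29. At 30 min RFX1 (1.17) and RAD24 (0.94) exceeded DUN1 (0.85) in WT, and CHK1 (0.85) exceeded it (0.77) in rad4Δ. In rad23Δ at 30 min RAD24 rose by 1.04 and DUN1 was not called. WT read 9.75 and 9.76 unirradiated, 9.35 and 9.41 at 15 min, 10.68 and 10.53 at 30 min and 11.26 and 11.31 at 60 min. In rad23Δ it read 10.25 and 10.51 unirradiated, 10.64 and 10.62 at 30 min and 10.98 and 11.00 at 60 min. In all 6 strains both arrays at 30 min, and both at 60 min, lay above both unirradiated ones. The averaged response was 0.91 ± 0.06 at 30 min (limma adjusted p = 8.59e-12) and 1.34 ± 0.06 at 60 min (adjusted p = 2.32e-14), a 2.53-fold rise. It was called at 60 min in each of the 6 strains, from 0.61 ± 0.14 in rad23Δ to 1.99 ± 0.14 in snf1Δ.

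RFX1 encodes Crt1, the repressor at the end of the relay. WT read 9.42 and 9.42 unirradiated, 9.60 and 9.35 at 15 min, 10.75 and 10.43 at 30 min and 10.20 and 10.79 at 60 min. In snf1Δ rad23Δ it read 9.09 and 9.36 unirradiated, 10.08 and 9.97 at 30 min and 10.88 and 10.88 at 60 min. In rad4Δ it read 9.67 and 9.48 unirradiated, 9.62 and 9.66 at 30 min and 10.33 and 10.62 at 60 min. The groups of rad4Δ overlapped at 30 min and parted at 60 min, while in WT and snf1Δ rad23Δ they had parted by 30 min. The averaged response was 0.64 ± 0.08 at 30 min (limma adjusted p = 4.11e-07) and 0.95 ± 0.08 at 60 min (adjusted p = 6.12e-10). At 60 min RFX1 was called in each of the 6 strains, from 0.52 ± 0.20 in rad23Δ to 1.66 ± 0.20 in snf1Δ rad23Δ. The rad23Δ call ended without its 60 min replicate 2 or either unirradiated array, and so did that of mig3Δ, which array weights also ended. That of WT (1.08) ended with array weights (adjusted p = 0.0915).

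**Figure D2:**
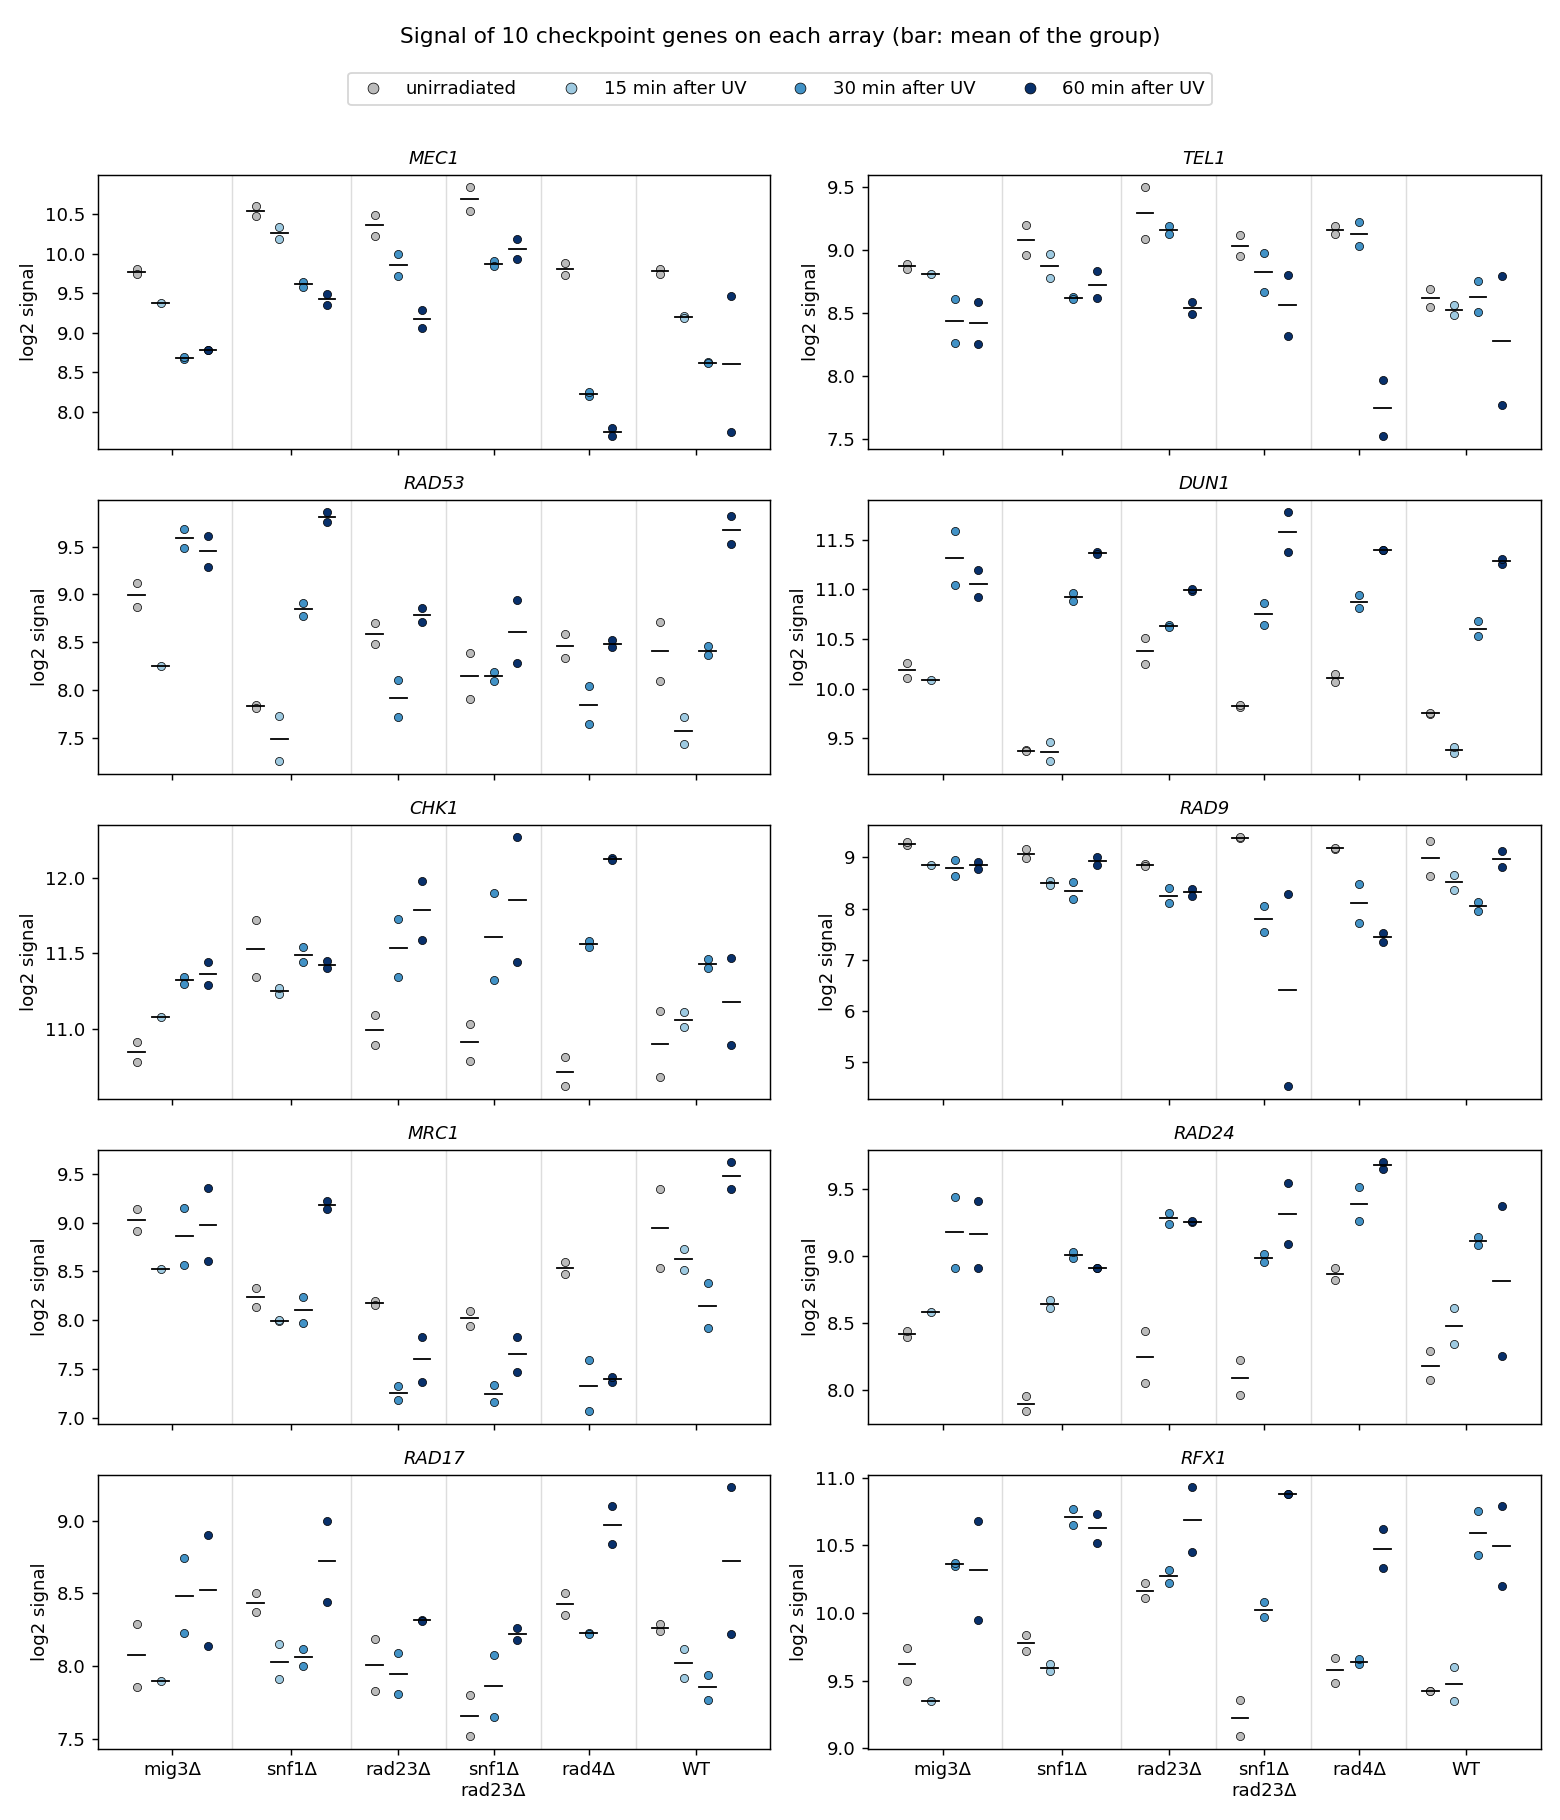
Deposited log2 signal of each member on every array, by strain and time; each point is 1 array and each bar a group mean. The RAD9 array at 4.52 and the separated WT pair at 60 min in MEC1 (9.46 and 7.74) stand out.

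Within single strains, the count of members called is given beside the share of all probe sets called. In WT 1, 5 and 5 members were called at 15, 30 and 60 min, against 5.91%, 25.1% and 30.6% of probe sets. In mig3Δ the counts were 0, 4 and 4, against 0.743%, 23.6% and 17%. In snf1Δ they were 1, 5 and 6, against 9.87%, 31.1% and 43.5%. In rad23Δ 3 and 6 members were called at 30 and 60 min, against 28.5% and 43%. In snf1Δ rad23Δ 7 and 5 were called, against 35.5% and 52.8%, and in rad4Δ 5 and 8, against 32.5% and 53.8%. Of these 65 calls, 29 ended in at least 1 alternative, mostly without 1 array of the strain concerned, and none of the 29 was on DUN1. Between 30 and 60 min, averaged over strains, the later level was called higher for RAD53, DUN1, MRC1, RAD17 and RFX1 and lower for TEL1, against 52.5% of probe sets called in either direction. Of the 5 higher, DUN1 and RFX1 had already risen at 30 min, RAD53 and RAD17 were not called then, and MRC1 had fallen.

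The strains differed before irradiation. The moderated F test over the 6 strains called 7 of 10 members unirradiated, against 75.9% of probe sets. Against WT, 5 were called in snf1Δ (45.3% of probe sets), 4 in rad23Δ (47.6%), 2 in snf1Δ rad23Δ (38.6%), 0 in mig3Δ (8.31%) and 0 in rad4Δ (6.75%). These comparisons share the WT arrays. MRC1 read 8.33 and 8.14 in snf1Δ, 8.20 and 8.16 in rad23Δ and 8.10 and 7.94 in snf1Δ rad23Δ, against 8.54 and 9.34 in WT. The limma differences were -0.71 ± 0.25 (adjusted p = 0.0244), -0.77 ± 0.25 (adjusted p = 0.0156) and -0.92 ± 0.25 (adjusted p = 0.00614) in that order. All 6 arrays lay below both WT arrays, but the 2 WT arrays lay apart, and without WT replicate 2 none of the calls remained (adjusted p = 0.435, 0.347 and 0.197).

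MEC1 unirradiated read 10.48 and 10.60 in snf1Δ and 10.54 and 10.84 in snf1Δ rad23Δ, against 9.81 and 9.74 in WT. The limma differences were 0.77 ± 0.28 in snf1Δ (adjusted p = 0.0288) and 0.92 ± 0.28 in snf1Δ rad23Δ (adjusted p = 0.0125), and the groups did not overlap. Both calls ended without replicate 2 of the deletion strain, and that of snf1Δ also without its replicate 1 or without either WT array. The size of the snf1Δ difference stayed between 0.71 and 0.83 in every alternative. DUN1 unirradiated was higher in rad23Δ at 10.25 and 10.51 and lower in snf1Δ at 9.38 and 9.37, against 9.75 and 9.76 in WT. The rad23Δ difference was 0.63 ± 0.14 (adjusted p = 0.000956), kept in every alternative, and the snf1Δ difference was -0.38 ± 0.14 (adjusted p = 0.0336). The snf1Δ call ended in 5 of 10 alternatives: without any 1 of the WT or snf1Δ arrays, and with a replicate block within each strain. Its size stayed between -0.40 and -0.36 in all of them. RFX1 unirradiated read 10.22 and 10.11 in rad23Δ, against 9.42 and 9.42 in WT, a difference of 0.74 ± 0.20 (adjusted p = 0.00371) that was kept in every alternative. TEL1 was also called higher in unirradiated rad23Δ (0.67, adjusted p = 0.0198), a call lost without either WT array or rad23Δ replicate 2. In unirradiated snf1Δ CHK1 was called higher and RAD53 lower, with the values given above. The order of unirradiated DUN1 levels, from high, was rad23Δ, mig3Δ, rad4Δ, snf1Δ rad23Δ, WT and snf1Δ, where the arrays of rad23Δ and mig3Δ and those of mig3Δ and rad4Δ overlapped.

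**Figure D3:**
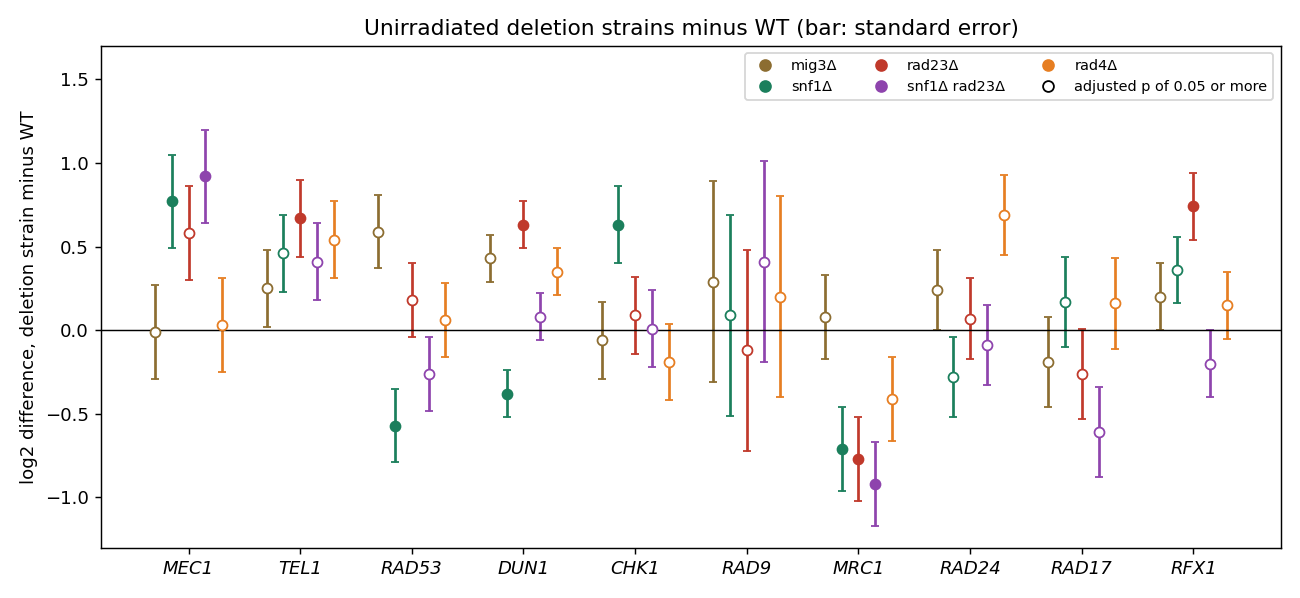
Unirradiated log2 difference of each deletion strain from WT for the 10 members, with bars of 1 SE and open symbols for differences not called. DUN1 and RFX1 lie above 0 in rad23Δ (0.63 and 0.74), and MRC1 lies at -0.71 to -0.92 in snf1Δ, rad23Δ and snf1Δ rad23Δ.

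Whether the UV response itself differed between strains was tested directly. The F test called 3 members at 30 min, namely RAD53, DUN1 and RFX1, against 18.6% of probe sets. At 60 min it called 7, all but MEC1, RAD24 and RAD17, against 54.9%. RAD53 had an adjusted p of 0.00213 at 30 min and 0.000155 at 60 min, DUN1 of 0.00197 and 4.94e-05, and RFX1 of 0.021 and 0.0222. MRC1 (adjusted p = 0.000509), CHK1 (0.00637), RAD9 (0.0267) and TEL1 (0.0486) were called at 60 min, and the TEL1 call was lost in 21 of its 30 alternatives, reaching an adjusted p of 0.272 without rad4Δ replicate 2 at 60 min. For RAD17 and RAD24 the adjusted p at 60 min was 0.968 and 0.591, which does not show that their responses were alike.

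**Figure D4:**
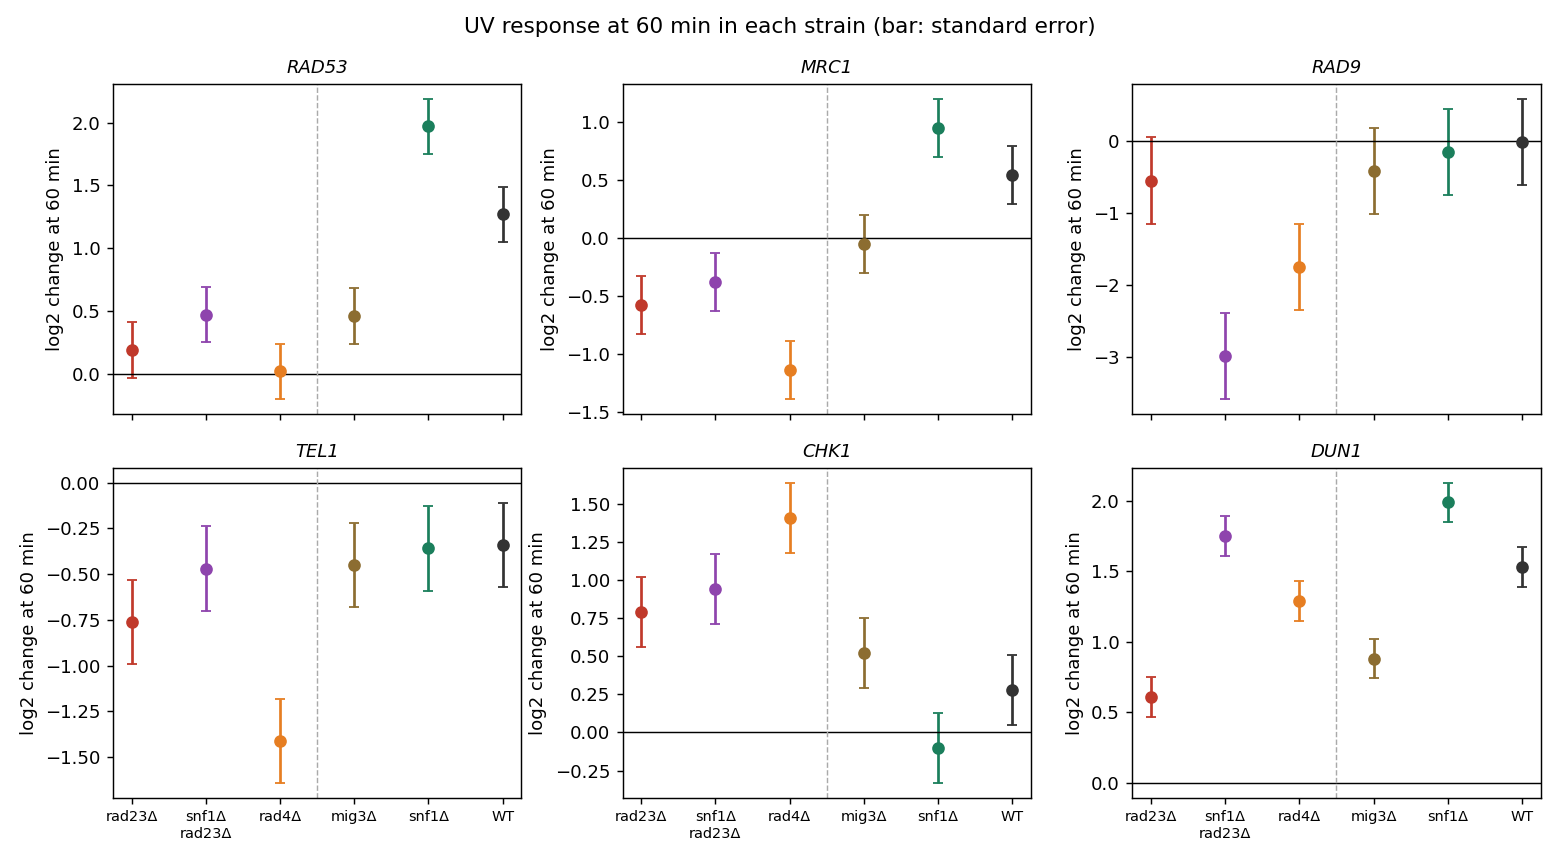
UV response at 60 min (log2, irradiated minus unirradiated, bars of 1 SE) of 6 members in each strain, with a dashed line between the strains lacking RAD23 or RAD4, on the left, and the others. RAD53 at 60 min runs from 0.02 in rad4Δ to 1.97 in snf1Δ, and MRC1 from -1.14 in rad4Δ to 0.95 in snf1Δ.

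Set against the WT response one strain at a time, 9 member differences were called, all of them in strains lacking RAD23 or RAD4. In rad23Δ 1 was called at 30 min (3.36% of probe sets) and 3 at 60 min (14.2%). In snf1Δ rad23Δ 0 were called at 30 min (3.16%) and 1 at 60 min (19.7%), and in rad4Δ 0 at 30 min (0.818%) and 4 at 60 min (17.6%). No member was called in mig3Δ at 15, 30 or 60 min (0.0186%, 0.948% and 0.836% of probe sets) or in snf1Δ (1.86%, 4.07% and 21.1%). The nearest in snf1Δ was DUN1 at 30 min, 0.69 ± 0.20 above the WT response (limma adjusted p = 0.0538). A missing call does not show a response like that of WT. In mig3Δ the RAD53 means were 8.99 unirradiated and 9.45 at 60 min, against 8.40 and 9.68 in WT. DUN1 at 60 min responded by 0.88 in mig3Δ and by 1.75 in snf1Δ rad23Δ, against 1.53 in WT. RAD53 responded by 0.19 in rad23Δ and 0.02 in rad4Δ at 60 min, against 1.27 in WT, differences of -1.08 ± 0.31 (adjusted p = 0.0258) and -1.25 ± 0.31 (adjusted p = 0.00826). DUN1 responded by 0.61 in rad23Δ, against 1.53 in WT (-0.93 ± 0.20, adjusted p = 0.00417). Its mean in rad23Δ was 10.38 unirradiated and 10.99 at 60 min, against 9.75 and 11.29 in WT. The higher unirradiated level in rad23Δ thus makes up part of that difference. MRC1 responded by -0.58 in rad23Δ and -1.14 in rad4Δ, against 0.54 in WT. At 60 min CHK1 responded by 1.41 in rad4Δ, against 0.28 in WT (1.13 ± 0.32, adjusted p = 0.0177), and TEL1 by -1.41 in rad4Δ, against -0.34 in WT (-1.07 ± 0.33, adjusted p = 0.0257). RAD9 responded by -2.99 in snf1Δ rad23Δ, against -0.01 in WT (-2.97 ± 0.85, adjusted p = 0.0172). RFX1 also started higher in rad23Δ, with means of 10.16 unirradiated and 10.27 at 30 min, against 9.42 and 10.59 in WT. At 30 min it responded by 0.11 in rad23Δ, against 1.17 in WT (-1.06 ± 0.28, adjusted p = 0.0351), a call that ended without WT 30 min replicate 1. All but the RFX1 value rest on the WT arrays at 60 min, the pair farthest apart, and with array weights, which give them the least weight, the calls ended for RAD53 (adjusted p = 0.297 in rad23Δ and 0.163 in rad4Δ), DUN1 (0.07), MRC1 (0.283 and 0.064), CHK1 (0.14), RAD9 (0.139) and TEL1 (0.122). The TEL1 call also ended without WT 60 min replicate 1 (adjusted p = 0.188).

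After these values were seen, the mean response of rad23Δ, snf1Δ rad23Δ and rad4Δ was set against that of mig3Δ, snf1Δ and WT, a comparison that does not rest on WT alone. At 30 min 3 members were called, all lower in the mean of the strains lacking RAD23 or RAD4, against 3.36% of probe sets: RAD53 (-0.97 ± 0.18, limma adjusted p = 0.00577), DUN1 (-0.54 ± 0.12, adjusted p = 0.0141) and RFX1 (-0.62 ± 0.16, adjusted p = 0.034). Their responses in rad23Δ and rad4Δ lay below those in mig3Δ, snf1Δ and WT. In snf1Δ rad23Δ DUN1 (0.91) and RFX1 (0.80) lay among them, with DUN1 at 0.85 in WT and RFX1 at 0.74 in mig3Δ. RAD53 means unirradiated and at 30 min were 8.15 and 8.14 in snf1Δ rad23Δ, against 8.40 and 8.41 in WT. DUN1 and RFX1 also started higher in rad23Δ than in WT. At 60 min 4 members were lower and 1 higher, against 36.6%. MRC1 differed by -1.18 ± 0.21 (adjusted p = 0.000149), RAD53 by -1.01 ± 0.18 (adjusted p = 0.000196), RAD9 by -1.57 ± 0.49 (adjusted p = 0.0152) and TEL1 by -0.50 ± 0.19 (adjusted p = 0.0425), while CHK1 was higher by 0.82 ± 0.19 (adjusted p = 0.00168). Mean responses of MRC1, RAD9 and CHK1 separated the strains of the 2 sides, those of RAD53 and TEL1 did not. RAD53 means unirradiated and at 60 min were 8.99 and 9.45 in mig3Δ and 8.15 and 8.61 in snf1Δ rad23Δ. TEL1 means were 8.87 and 8.42 in mig3Δ and 9.03 and 8.56 in snf1Δ rad23Δ. The calls on RFX1 at 30 min and TEL1 at 60 min were each lost in 17 alternatives (adjusted p up to 0.0796 and 0.097), and RAD9 became -0.94 without the array at 4.52. Since the comparison was chosen from the same values, these p-values are no independent evidence. Against snf1Δ alone, 2 members were called at 30 min (9.01% of probe sets) and 4 at 60 min (42.7%). In that contrast the comparator had the highest RAD53 and MRC1 responses of all strains at 60 min. The WT and mig3Δ means do not enter that contrast, but their arrays still enter the shared spread behind its p-values. The control probe sets for RNA integrity also differed: the signal of SPT15 probes at the 3′ end exceeded that at the 5′ end by 1.54 to 2.18 on the log2 scale in rad23Δ, snf1Δ rad23Δ and rad4Δ at 60 min, against 1.27 to 1.36 in mig3Δ, snf1Δ and WT. For SRB4 this excess spanned 3.17 to 3.69 in the first 3 strains, against 3.27 to 3.39 in the other three. For ACT1 it spanned 0.12 to 0.22, against 0.18 in the other three. Their part in the result was not tested.

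Coding length, introns included, ran with the direction of the averaged response among the members. The 4 longest, TEL1 (8364 nt), MEC1 (7107 nt), RAD9 (3930 nt) and MRC1 (3291 nt), all had negative averaged responses at 60 min, MRC1 without a call. The 6 shorter, RAD53 (2466 nt), RFX1 (2436 nt), RAD24 (1980 nt), CHK1 (1584 nt), DUN1 (1542 nt) and RAD17 (1206 nt), all rose. Across the array the longest genes also fell most often, but the split seen in the members did not hold in every class. Of 460 genes of 3000 nt or more, 75.9% fell and 8.26% rose at 60 min, with a median of -0.50, while the 2002 genes under 1000 nt had a median of 0.12. The 2112 genes from 1000 up to 2000 nt had a median of 0.05, and the 763 genes from 2000 up to 3000 nt one of -0.15. Spearman's rho of length and response was -0.31 across 5337 genes and -0.70 across the 10 members, which share all their arrays. For the difference between the strains lacking RAD23 or RAD4 and the others at 60 min, rho was -0.47 and -0.55. The length classes were chosen after the values were seen, and length is confounded with every other property of these genes.

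**Figure D5:**
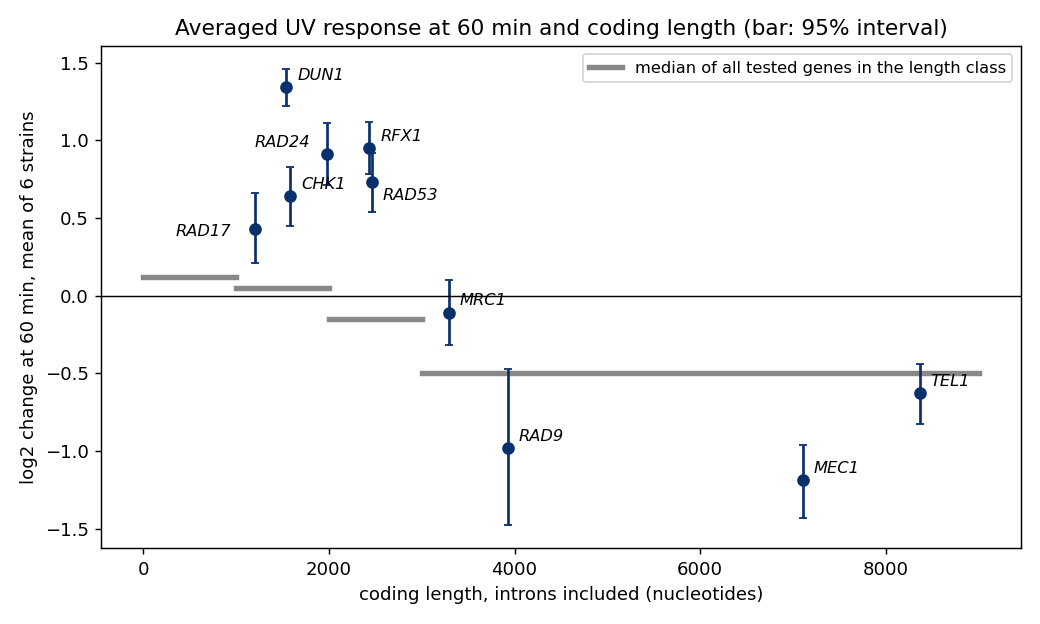
Averaged UV response at 60 min (log2, with 95% confidence intervals) against coding length for the 10 members, with grey lines for the medians of all tested genes in 4 length classes, the last of which has no upper end. Members of 3291 nt and longer lie below 0 and the 6 shorter ones above it, and the class medians run from 0.12 down to -0.50.

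Over the 21 group means, the members moved in several patterns. DUN1 and RFX1 had a Pearson r of 0.81, DUN1 and RAD24 of 0.78, RAD53 and DUN1 of 0.69, and MEC1 and TEL1 of 0.68. CHK1 and RAD9 ran opposite ways with r of -0.78 (-0.75 without the RAD9 array at 4.52), and MEC1 and RAD24 with -0.70. The genes most like DUN1 were ESC8 (r = 0.95), RFA2, a subunit of replication protein A (0.94), and SSL2, a helicase of TFIIH (0.93). RAD53 was most like NPP1 (0.88) and the proteasome subunits PRE6 and RPN7 (0.85 each). MEC1 was most like PST1 (0.92), which encodes a cell wall protein, YIL067C and YPS3 (0.88 each). MRC1 was most like the cohesin subunit SMC1 (0.92), PIM1 (0.91) and DEF1 (0.90). RAD9 was most like adenylate cyclase, CYR1 (0.95), BIR1 (0.93) and SLU7 (0.91), but this order rests on the array at 4.52: without it the first were the condensin subunit SMC2 (0.94), BNI1 (0.94) and TFC4 (0.93), with CYR1 at 0.82, BIR1 at 0.83 and SLU7 at 0.68. RFX1 was most like PTC4 (0.91), CHK1 like CTL1 (0.95), RAD24 like CCA1 (0.94), RAD17 like RTT103 (0.88) and TEL1 like IRA2 (0.84). The 21 points share arrays, strains and unirradiated baselines, so these values describe this set of samples.

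The rest of the pathway moved both ways at 60 min on average. All 4 genes repressed by Crt1 rose: HUG1, a small inhibitor of ribonucleotide reductase, by 3.74 ± 0.18, RNR3 by 2.56 ± 0.16, RNR4 by 0.59 ± 0.04 and RNR2 by 0.53 ± 0.03. Of the corepressor subunits that work with Crt1, CYC8 fell by 1.00 (limma adjusted p = 6.08e-11), and TUP1 was at -0.27 ± 0.12 (adjusted p = 0.0518). The counts that follow stand beside the 73.6% of probe sets called at 60 min and are not above it. Of 15 other sensors and mediators, 6 rose and 3 fell, among them XRS2 (0.45) and LCD1, which encodes Ddc2 (0.44), upward, and MRE11 (-0.57) and RAD50 (-0.56) downward. The 3 subunits of the MRX complex thus did not move one way. Of 8 phosphatases and negative regulators, 1 rose, PTC3 (0.48), and 3 fell, PSY2 (-1.09), RTT107 (-1.03) and PTC2 (-0.58). Of 10 checkpoint targets, 3 rose and 4 fell, with the histone chaperone ASF1 at 0.91 and the mitotic kinase CDC5 (-0.82), the transcription factor SWI6 (-0.81) and the nuclear pore protein NUP1 (-0.75) among the largest. The list medians were 1.58, -0.63, 0.18, -0.06 and -0.03 in that order, beside 0.02 over all probe sets. In WT at 60 min the Crt1-repressed genes all rose, with HUG1 at 5.93 ± 0.44 and RNR3 at 3.69 ± 0.38, while RFX1 itself rose by 1.08.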

How the data were processed

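The authors deposited log2 signals of 10928 probe sets on 41 arrays, made with GCRMA 2.10.0 in R 2.6.2 per the submitters' processing notes. Symbols and lengths came from the probe annotation and the R64 gene table, of which no coordinates were used because the build behind the array is not given in the sources used here. Probe sets without a match to 1 gene of that table were left out. So were 118 probe sets that did not reach a log2 signal of 4 on at least 2 arrays, leaving 5380. limma 3.58.1 in R 4.3.3 was fitted with 1 mean per strain and time (21 groups, 20 residual and 2.86 prior degrees of freedom). P-values of contrasts and F tests were corrected over all 5380 probe sets (Benjamini-Hochberg) and called at an adjusted p under 0.05. ± values are SE. The fit was also run on simulated data with independent noise and a single spread per probe set for all groups. In the real arrays the replicate SD ran from 0.1 in snf1Δ at 15 min to 0.53 in WT at 60 min. That run therefore cannot show how the p-values behave under unequal spread. All 10 members are named. From each pathway list the 4 largest changes at 60 min are named. The 3 genes most correlated with each member were ranked, and for some members only the first is given. The members and lists were chosen with earlier results of these data known. Same-numbered replicates deviated together (r above 0.1) in 64 of 190 pairs of groups, and in 18 of 24 pairs within a strain (median r of 0.23). Since not every pair did, the numbers were not taken as pairing samples, and a block within each strain was added after seeing the data. The alternatives were no filter, quantile normalization, median centring, array weights, the replicate number as a block, and the loss of 1 array at a time. A planned promoter motif search was not run. The number of arrays limits the precision.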

Additional observations from a re-analysis of the deposited data

Results flagged for a closer look

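The UV response of 9 member and strain pairs differed from the WT response by the limma test of the difference itself. In rad23Δ the difference was -1.06 for RFX1 at 30 min, and at 60 min it was -1.08 for RAD53, -0.93 for DUN1 and -1.11 for MRC1. In snf1Δ rad23Δ at 60 min it was -2.97 for RAD9, and -1.09 without the array on which RAD9 read 4.52. In rad4Δ at 60 min it was -1.25 for RAD53, -1.67 for MRC1, -1.07 for TEL1 and 1.13 for CHK1. Each of the 9 calls ended in at least 1 alternative, with array weights or without 1 array.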

How the results depend on the processing

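Of 410 member results, 133 were called and 78 of these stayed called in every alternative. Of the results not called, 96 changed sign in an alternative that did not call them either, at sizes up to 0.54. The other 4 sign changes, all without 1 array, were called there and are those of RAD9 and MEC1 below. The 11 calls of unirradiated strains against WT became 19 with array weights, and 2 to 11 with 1 array left out (2 without WT unirradiated replicate 2, 6 without snf1Δ unirradiated replicate 2). The 9 calls on differences from the WT response became 4 to 21 with 1 array left out (4 without WT unirradiated replicate 1, 15 and 21 without WT 60 min replicate 1 and 2). With 1 array left out, the RAD9 difference between 60 and 30 min ranged from -0.39 to 0.24, and the MEC1 difference from WT at 60 min from -0.68 to 1.04 in mig3Δ, -0.81 to 0.91 in snf1Δ and -0.87 to 0.85 in rad23Δ. The MEC1 ranges come from the 2 WT arrays at 60 min. With a replicate block the counts were 11 in WT, 55 in deletion strains (54 without it), 23 averaged, 11 unirradiated, 9 for differences from WT and 16 for the F tests. With a replicate block within each strain they were 12, 59, 23, 10, 9 and 16 in that order. A response averaged over snf1Δ, rad23Δ, snf1Δ rad23Δ and rad4Δ was chosen after seeing the data. For it 7 members were called at 30 min (60.6% of probe sets) and 10 at 60 min (70.8%). The WT and mig3Δ arrays still entered the shared spread there. Quantile normalization and centring moved the median of all genes by at most 0.099.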
